A study of Arabidopsis thaliana with 18 samples.

Results

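The 8 features followed here are those of ATG3 and of ATG8B, ATG8C, ATG8D, ATG8E, ATG8F, ATG8G and ATG8H, genes of autophagy in Arabidopsis thaliana. They are all the features that the platform's probe-gene table gives for exactly 1 gene whose symbol begins with ATG and a digit, among 38408 features, 16722 of which are named for exactly 1 gene. ATG8A (AT4G21980) and ATG8I (AT3G15580), the other genes of the ATG8 family, are named APG8A and APG8H in that table, so they fall outside the rule and are given beside the 8 as relatives. The loci are AT5G61500 for ATG3, AT4G04620 for ATG8B, AT1G62040 for ATG8C, AT2G05630 for ATG8D, AT2G45170 for ATG8E, AT4G16520 for ATG8F, AT3G60640 for ATG8G and AT3G06420 for ATG8H.

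The study measured root RNA on 18 expression arrays in 6 groups of 3, from seedlings 4 days old. TMO5 is a transcription factor of vascular development, and TMO5-GR joins it to the glucocorticoid receptor, which lets it act when dexamethasone (DEX) is given. Root tips of Col-0 plants carrying pRPS5A-TMO5-GR, with a promoter active in dividing cells, were taken 1 h after transfer to medium alone (root MS), to DEX (root DEX), to cycloheximide (root CHX) or to both (root DEX+CHX). GFP-positive cells of C24 plants carrying J0571>>pUAS-TMO5-GR, in which the enhancer trap J0571, known from ground tissue, drives the fusion, came from roots that were protoplasted and sorted 2 h into treatment, with medium alone for J0571 control and with DEX for J0571 DEX. All 6 groups therefore carry a TMO5-GR construct, and no group lacks it. The labels number the arrays of a group as repeats without saying that they came from separate cultures, so the p-values measure the spread between these samples, which may be technical.

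Autophagy is the route by which a cell encloses part of its own contents in a membrane vesicle, the autophagosome, and delivers it to the vacuole for breakdown. ATG8 is a small ubiquitin-like protein that is attached to the lipid phosphatidylethanolamine on the growing membrane, where it also binds the receptors that bring in cargo. ATG3 is the enzyme that makes this attachment, in the manner of a ubiquitin-conjugating enzyme. Plants have a family of ATG8 genes, and in Arabidopsis roots autophagy is known for its part in recycling under nutrient shortage. Cycloheximide blocks protein synthesis at the ribosome, and in studies of transcription factors fused to the glucocorticoid receptor it is used to set apart responses that need new protein.

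Levels are RMA log2 signals as deposited, so that a difference of 1 is a 2-fold change, and no feature's level is set against another's. A change is called where limma's test, adjusted by Benjamini-Hochberg over all 38408 features, gave an adjusted p under 0.05. Within groups, the correlation of array pairs over the features, which are not independent of each other, was 0.982 to 0.992. The median signal per array was 4.76 to 4.87 without cycloheximide and 4.61 to 4.65 with it in root tips, and 4.50 to 4.58 in sorted cells, while upper quartiles lay between 7.21 and 7.31 in all 18 arrays.

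The enzyme of the pair, ATG3, had root MS signals of 8.67, 8.63 and 8.75 and root CHX signals of 8.42, 8.41 and 8.28. The 3 arrays with cycloheximide all lay below the 3 without. With DEX present its signals were 8.69, 8.68 and 8.82 in root DEX and 8.36, 8.41 and 8.39 in root DEX+CHX, again without overlap. ATG3 fell by 0.31 on the log2 scale in root CHX (SE 0.08, adjusted p = 0.0128) and by 0.34 in root DEX+CHX against root DEX (SE 0.08, adjusted p = 0.00723). Without root CHX replicate 3 the first of these calls was lost (adjusted p = 0.0503).

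The comparison of cycloheximide with medium alone asks what blocking protein synthesis for 1 h did by itself, and 5 of the 8 ATG features fell: ATG3, ATG8B, ATG8D, ATG8F and ATG8H. Over all features, 19.7% were called lower and 10.4% higher. Among features with a mean signal at or above that of the lowest of the 8, the shares were 26.5% and 16.4%. For features of exactly 1 gene they were 12.4% and 13.3%. No ATG feature rose. For 7 of the 8 all root CHX arrays lay below all root MS arrays, a position that 30.2% of all features shared. The median change of the 8 was -0.33, that of all features -0.13 and that of features of exactly 1 gene -0.05. Relative to the median of all features, the 8 ranged from -0.44 for ATG8D to 0.11 for ATG8C. On the deposited values the upper quartiles of root CHX arrays lay within the range of root MS. RMA normalizes quantiles, so these quartiles cannot tell whether RNA levels shifted as a whole.

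ATG8D, one of the ubiquitin-like proteins, changed most in root CHX among the 8. Its signals were 6.61, 6.35 and 6.65 in root MS and 5.98, 6.05 and 5.86 in root CHX, and the groups did not overlap. It fell by 0.57 (SE 0.10, adjusted p = 0.0021), and this call held whichever of the 6 arrays was left out and also with array medians made equal. In the presence of DEX its signals were 6.41, 6.55 and 6.35 without cycloheximide and 5.66, 5.80 and 5.75 with it. That fall was 0.70 (SE 0.10, adjusted p = 0.000517), and the 6 arrays again parted by treatment.

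ATG8H belongs to the members whose protein ends at the glycine that is joined to the lipid, so that it needs no trimming by the ATG4 proteases. It read 10.155, 10.017 and 10.001 in root MS and 9.71, 9.48 and 9.72 in root CHX, with no overlap between the groups. It fell by 0.42 (SE 0.13, adjusted p = 0.0279). The call was lost without root MS replicate 1 (adjusted p = 0.0857), root CHX replicate 1 (0.0504), root MS replicate 2 (0.0534) or root CHX replicate 2 (0.10). With DEX, ATG8H read 10.25, 10.39 and 10.12 without cycloheximide and 9.84, 9.56 and 9.41 with it, a fall of 0.65 (SE 0.13, adjusted p = 0.00248) that passed in all 6 fits with 1 array left out.

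ATG8B read 5.99, 6.23 and 5.98 in root MS and 5.66, 5.49 and 5.67 in root CHX. All root CHX arrays were the lower ones, and it fell by 0.46 (SE 0.15, adjusted p = 0.0421), but leaving out any 1 of the 6 arrays ended that call (adjusted p from 0.0588 to 0.132). With DEX it read 6.31, 6.22 and 6.33 without cycloheximide and 5.93, 5.27 and 5.66 with it. This fall of 0.66 (SE 0.15, adjusted p = 0.00629) was kept in all 6 such fits, although root DEX+CHX was the group in which ATG8B varied most between arrays (SD 0.33).

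ATG8F read 10.67, 10.71 and 10.64 in root MS and 10.32, 10.48 and 10.21 in root CHX, again with the treated arrays lowest. It fell by 0.34 (SE 0.10, adjusted p = 0.0269), a call lost without root MS replicate 1 (adjusted p = 0.0611), root CHX replicate 1 (0.0755), root MS replicate 2 (0.0736) or root CHX replicate 3 (0.0965). With DEX it read 10.57, 10.82 and 10.76 without cycloheximide and 10.30, 10.30 and 10.48 with it. The fall there was 0.36 (SE 0.10, adjusted p = 0.0181), and it was lost without root DEX+CHX replicate 1 (adjusted p = 0.0602), root DEX replicate 2 (0.0675), root DEX+CHX replicate 2 (0.0636) or root DEX replicate 3 (0.0558).

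The other 3 ATG8 features did not pass in root CHX. ATG8E read 8.32, 8.22 and 8.11 in root MS against 7.85, 8.06 and 7.78 in root CHX, a change of -0.32 (SE 0.12, adjusted p = 0.0727) with no overlap. That change passed with trend and robust variances (adjusted p = 0.0487) and in 1 fit over all 18 arrays (0.0423). ATG8G read 6.28, 6.40 and 6.54 against 5.94, 6.28 and 6.14, the highest root CHX array standing just below the lowest root MS array, and its change of -0.29 (SE 0.10, adjusted p = 0.0641) passed without root CHX replicate 2 (adjusted p = 0.0378). ATG8C read 6.66, 6.94 and 6.84 against 7.02, 6.65 and 6.70, so that its groups overlapped. Its change was -0.02 (SE 0.11, adjusted p = 0.905, 95% interval -0.27 to 0.23), and it turned to 0.15 with array medians made equal.

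In the presence of DEX, cycloheximide lowered 6 of the 8 features, the same 5 and ATG8G, where 22.1% of all features were called lower and 11.6% higher. Among features with a mean signal at or above that of the lowest of the 8, the shares were 30.2% and 17.7%. For features of exactly 1 gene they were 13.9% and 15.1%. All 8 had every root DEX+CHX array below every root DEX array, a position held by 30.9% of all features. ATG8G read 6.24, 6.38 and 6.35 in root DEX and 6.02, 5.94 and 5.91 in root DEX+CHX, and it fell by 0.37 (SE 0.10, adjusted p = 0.0202). That call was lost without root DEX replicate 2 (adjusted p = 0.0648), root DEX+CHX replicate 2 (0.0581), root DEX replicate 3 (0.0563) or root DEX+CHX replicate 3 (0.0615).

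ATG8E and ATG8C did not pass in that comparison. ATG8E read 8.12, 8.46 and 8.38 in root DEX and 7.99, 7.82 and 8.11 in root DEX+CHX, a change of -0.35 (SE 0.12, adjusted p = 0.0510), just short of the threshold. It passed without root DEX replicate 1 (adjusted p = 0.0232) or root DEX+CHX replicate 3 (0.0449). Other alternatives in which it passed include trend and robust variances (adjusted p = 0.0318) and 1 fit over all 18 arrays (0.0265). With quantile normalization or array medians made equal it did not pass. ATG8C read 6.93, 6.90 and 6.99 against 6.83, 6.87 and 6.73, a change of -0.13 (SE 0.11, adjusted p = 0.408) that turned to 0.08 with array medians made equal. The median change of the 8 was -0.36 and that of all features -0.13. The cycloheximide comparisons with and without DEX use different arrays but 1 estimate of the spread.

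**Figure D1:**
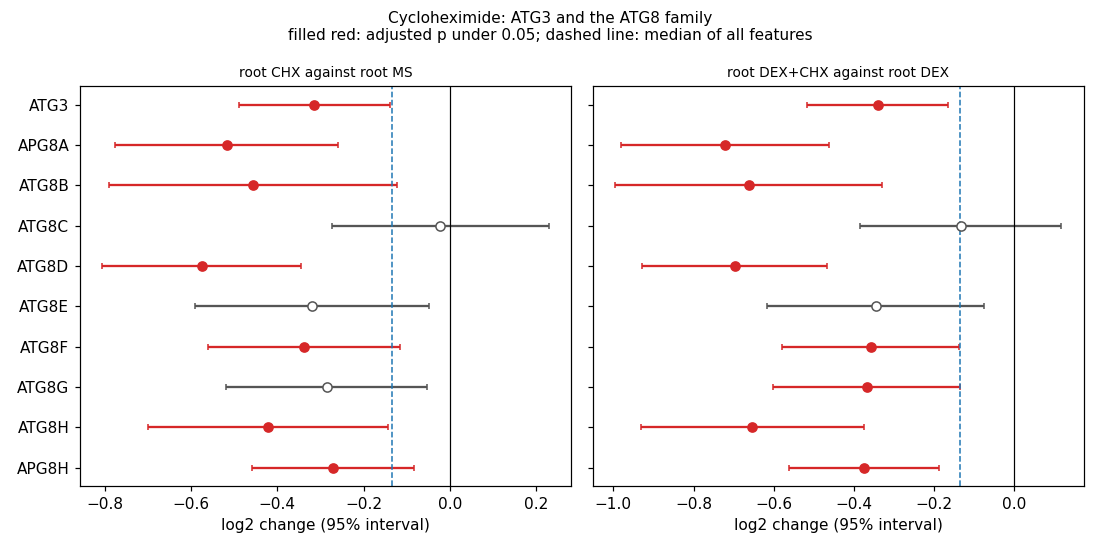
Log2 change with cycloheximide, without DEX (left) and with DEX (right), for ATG3 and the 9 ATG8 features. Points are changes with 95% intervals, red where the adjusted p is under 0.05, and the dashed line is the median of all features; ATG8C lies nearest to 0 in both panels, and ATG8D is lowest of the 8 in both.

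How many of the 8 fell depended on the scale. With quantile normalization 4 of them were called lower in root CHX and 5 in root DEX+CHX against root DEX; with array medians made equal the numbers were 1 (ATG8D) and 3 (ATG8B, ATG8D and ATG8H). Among all calls in root CHX, 34.5% were higher on the deposited values, 49.1% with quantile normalization and 61.2% with equal medians, and the median change of all features was -0.13, 0.01 and 0.04 in turn. In root DEX+CHX against root DEX the shares were 34.5%, 49.2% and 63.1%. The median of the 8 stayed below that of all features under each of these scalings, at -0.30 with quantile normalization and -0.16 with equal medians in root CHX.

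**Figure D2:**
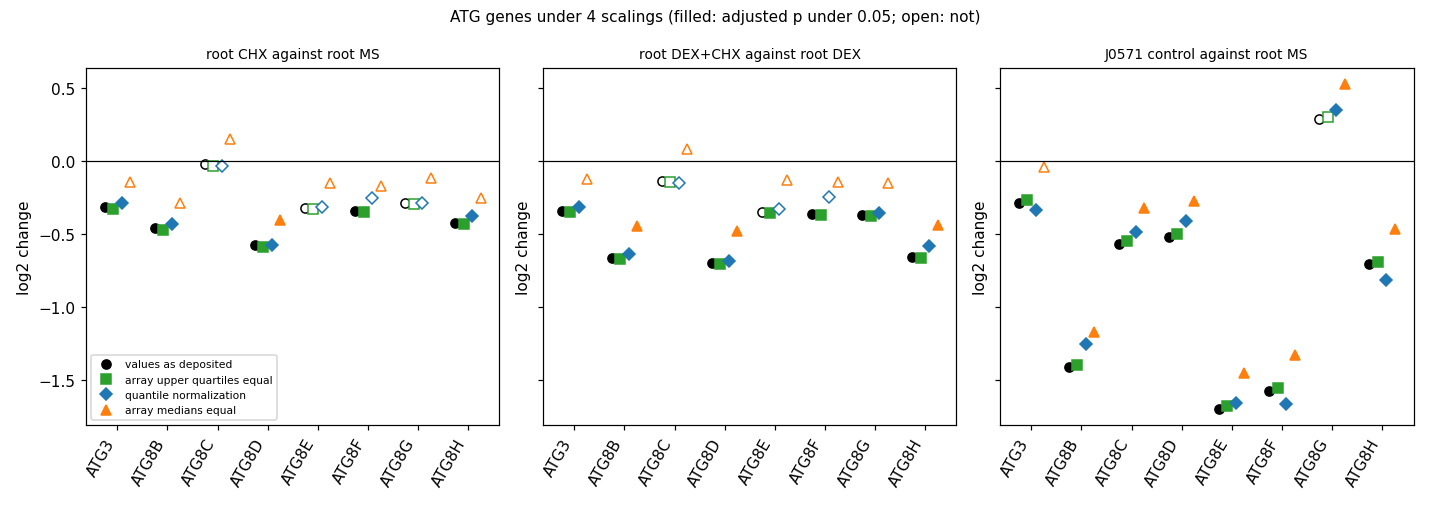
Log2 changes of the 8 ATG features on the deposited values and under 3 other scalings of the arrays, for both cycloheximide comparisons and for sorted cells against root tips. Filled symbols have an adjusted p under 0.05; equal array medians move every value upward, and only ATG8D remains filled in root CHX.

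Both relatives in the ATG8 family fell with cycloheximide. ATG8A, under the name APG8A, read 7.24, 7.42 and 6.93 in root MS and 6.70, 6.73 and 6.60 in root CHX, and it fell by 0.52 (SE 0.12, adjusted p = 0.00724), a call kept whichever array was left out. ATG8I, under the name APG8H, is the other member that needs no trimming, and it read 9.59, 9.55 and 9.50 against 9.29, 9.22 and 9.32. Its fall of 0.27 (SE 0.08, adjusted p = 0.0342) was lost in each of the 6 fits with 1 array left out (adjusted p from 0.0519 to 0.104). With DEX present APG8A fell by 0.72 (SE 0.12, adjusted p = 0.00088) and APG8H by 0.38 (SE 0.08, adjusted p = 0.00601). With array medians made equal both calls of APG8H were lost, at -0.10 without DEX (adjusted p = 0.487) and -0.16 with it (adjusted p = 0.229), and quantile normalization ended the first (adjusted p = 0.0619).

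The rest of the autophagy machinery is thinly covered, with 10 of 33 listed loci outside the ATG8 family having a feature named for 1 gene, 9 of them besides ATG3. None of these 9 fell in root CHX and 2 rose, where 19.7% and 10.4% of all features did, and their median change was 0.07. AT2G37840, listed among the initiating kinase genes, rose by 0.39 (SE 0.10, adjusted p = 0.0132), and AT2G32760, listed with the lipid kinase complex, rose by 0.34 (SE 0.08, adjusted p = 0.00983). The call of AT2G32760 was lost when only the 6 arrays compared were fitted (adjusted p = 0.0542). With DEX present AT2G32760 rose by 0.29 (SE 0.08, adjusted p = 0.0182), a call lost without root DEX replicate 1 (adjusted p = 0.0565) or root DEX+CHX replicate 2 (0.0656), and no other of the 9 passed. AT5G50230, listed beside ATG3 among the conjugation genes, had a change of -0.11 (SE 0.11, adjusted p = 0.492) in root CHX.

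With array medians made equal, 2 more of these loci passed as higher in root CHX, AT3G53930 at 0.37 (adjusted p = 0.0338) and AT1G49180 at 0.45 (adjusted p = 0.0401). In root DEX+CHX against root DEX, equal medians added AT2G37840, AT3G18770, AT3G53930, AT1G49180 and ATG101 as higher (adjusted p from 0.00904 to 0.0359). Whether the ATG8 features and the other machinery differed in their response was not tested.

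Upstream of autophagy, RAPTOR1, a partner of the TOR kinase that restrains autophagy when nutrients are plentiful, was the 1 of 5 listed kinase genes with a feature. It fell by 0.42 in root CHX (SE 0.08, adjusted p = 0.00294) and by 0.33 in root DEX+CHX against root DEX (SE 0.08, adjusted p = 0.00891), and both calls were lost with array medians made equal. Of 9 receptors and adaptors, 3 had a feature. DSK2 (AT2G17200), a ubiquitin-binding receptor, fell by 0.27 in root CHX (SE 0.07, adjusted p = 0.0156), a call lost without root CHX replicate 1 (adjusted p = 0.0570) or root MS replicate 2 (0.0556). Its neighbour AT2G17190 fell by 0.26 (SE 0.07, adjusted p = 0.0195), lost without root CHX replicate 1 (adjusted p = 0.0531), root MS replicate 2 (0.0599) or root CHX replicate 2 (0.0678), while AT4G34660 had a change of -0.17 (SE 0.18, adjusted p = 0.526). With array medians made equal DSK2 was at -0.10 (adjusted p = 0.373) and AT2G17190 at -0.08 (adjusted p = 0.457), neither past the threshold, and AT2G17190 was also lost with quantile normalization (adjusted p = 0.107). None of the 10 loci of membrane delivery and none of the 9 of carbon starvation has a feature named for 1 gene here.

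The comparisons with DEX ask whether activating TMO5-GR changed the ATG genes, and no ATG feature passed in any of them. In root tips without cycloheximide the changes ran from -0.10 for ATG8D to 0.22 for ATG8B, with a median of 0.08 (adjusted p from 0.903 to 0.993). limma called 0 of all 38408 features there, 2368 had an unadjusted p under 0.05, and none of the 8 did. Without root DEX replicate 1, 15 features passed, none of them among the 8. All 8 features had overlapping arrays in root DEX and root MS, as most features did: 4.58% of all had every root DEX array below and 4.68% every one above. The 95% intervals of the 8 changes lay between -0.33 and 0.55.

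Under cycloheximide DEX gave changes from -0.22 for ATG8D to 0.08 for ATG8E, all with an adjusted p of 1.00. The root DEX+CHX arrays of ATG8D lay below its root CHX arrays, a position shared by 4.98% of all features, and its change of -0.22 (SE 0.10) had a 95% interval from -0.45 to 0.01 and an unadjusted p of 0.0564. The intervals of the 8 lay between -0.45 and 0.35. limma again called 0 features of all and 0 of the 8, with 1189 of all and none of the 8 at an unadjusted p under 0.05.

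The interaction of the agents, which asks whether DEX acted otherwise under cycloheximide, was below 0 for all 8 features on the deposited values, 7 with quantile normalization and 5 with equal medians. On the deposited values it was below 0 for 19612 of all 38408 features. The 8 share the same arrays, so their signs are not independent of each other. Interaction values of the 8 ran from -0.23 to -0.02 (adjusted p = 0.999 for each, 95% intervals within -0.68 and 0.36). No feature of all 38408 passed, and none of the 8 had an unadjusted p under 0.05.

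In sorted J0571 cells, DEX gave changes from -0.07 for ATG8C to 0.14 for ATG8E. ATG8E read 6.52, 6.62 and 6.42 in J0571 control and 6.64, 6.64 and 6.72 in J0571 DEX. Its 3 DEX arrays lay above the 3 controls, as in 5.79% of all features, and its change of 0.14 did not pass (SE 0.11, adjusted p = 0.914). The 8 changes had adjusted p from 0.914 to 1.00, no unadjusted p under 0.05 and 95% intervals between -0.44 and 0.58, while 0.0312% of all features were called higher and 0.00260% lower. The response in J0571 cells minus that in root tips ran from -0.19 to 0.08 and passed for none of the 8 (adjusted p from 0.933 to 0.998), against 0.0443% of all features called higher and 0.00781% lower.

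**Figure D3:**
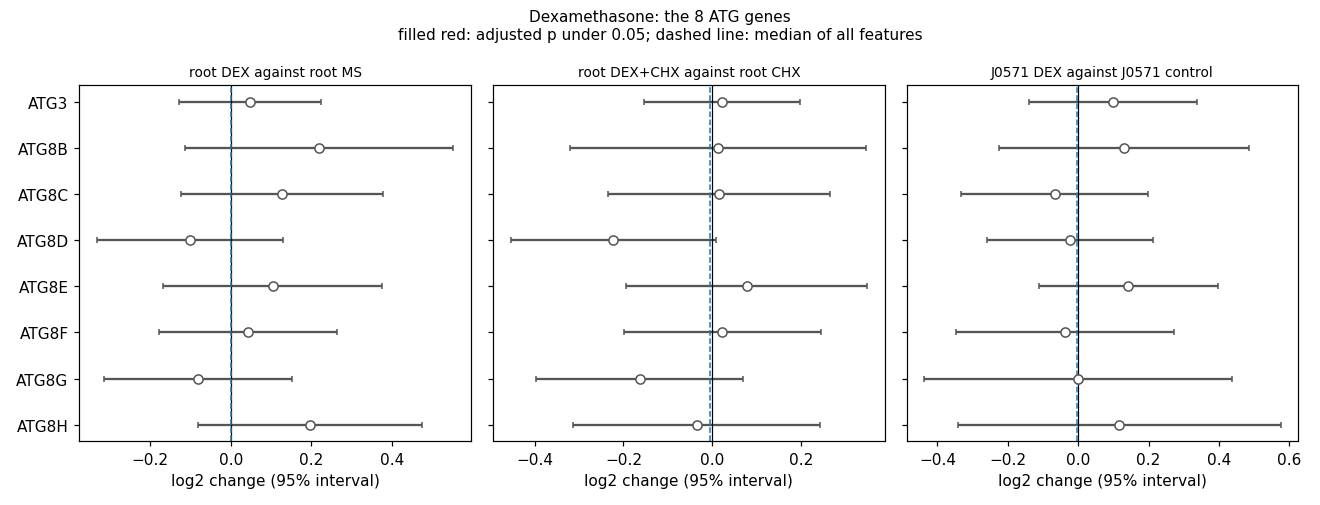
Log2 change with DEX for the 8 ATG features in root tips, in root tips under cycloheximide and in sorted J0571 cells. Points are changes with 95% intervals, and all are open because no adjusted p is under 0.05; the ATG8D interval under cycloheximide ends close to 0.

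In sorted J0571 control cells 7 of the 8 features were lower than in root MS, and ATG8G was the exception. Over all features, 22.4% were called lower and 26.5% higher. Among features with a mean signal at or above that of the lowest of the 8, the shares were 28.6% and 40.8%. For features of exactly 1 gene they were 19.1% and 30.2%. The median difference of the 8 was -0.64 and that of all features 0.05. For these 7 all J0571 control arrays lay below all root MS arrays, as in 24.0% of all features. Every call among the 7 held whichever of the 6 arrays was left out. The groups differ in ecotype, construct, time, protoplasting, sorting and cell type, and these cannot be told apart, nor can fewer cells of a type from less RNA per cell. Their root MS arrays are also those of the cycloheximide comparison.

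ATG8E and ATG8F differed most. The J0571 control arrays of ATG8E, at 6.52, 6.62 and 6.42, all lay below its root MS arrays at 8.32, 8.22 and 8.11. It was 3.23-fold lower, a difference of -1.69 on the log2 scale (SE 0.11, adjusted p = 8.51e-09). ATG8F read 8.91, 9.20 and 9.20 in J0571 control, where root MS read 10.67, 10.71 and 10.64, and it was 2.97-fold lower (-1.57, SE 0.11, adjusted p = 1.21e-08).

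ATG8B read 4.76, 4.68 and 4.53 in J0571 control, below all its root MS arrays, a difference of -1.41 (SE 0.15, adjusted p = 1.65e-06). These signals stood near the array medians of J0571 control, 4.53 to 4.58, so the size of this difference is less certain. ATG8H read 9.59, 9.31 and 9.16, a difference of -0.71 (SE 0.16, adjusted p = 0.00155). Its replicate 1 was the highest of the 3, as in J0571 DEX at 9.81, 9.28 and 9.31. RCA, a photosynthesis gene of the shoot, was also highest in replicate 1, at 8.20 beside 6.66 and 6.47 in J0571 control. In J0571 DEX it read 7.87 beside 5.84 and 5.74. ATG8B was likewise highest in replicate 1 of both sorted groups, at 4.76 and 4.96. Root tips were mixed. In root MS both RCA (7.58) and ATG8H (10.155) peaked in replicate 1. Where RCA peaked in root DEX+CHX (replicate 3, 7.40), ATG8H was lowest (9.41). The same held for replicate 3 of root DEX (7.55 and 10.12) and replicate 2 of root CHX (7.33 and 9.48). The part of RCA in the ATG8H values was not tested.

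ATG8C read 6.22, 6.28 and 6.24 in J0571 control, a difference of -0.56 (SE 0.11, adjusted p = 0.000421), although its root CHX and root MS arrays had overlapped. ATG8D read 5.96, 6.02 and 6.08, a difference of -0.52 (SE 0.09, adjusted p = 0.000307). ATG3 read 8.40, 8.47 and 8.33, the smallest of the called differences at -0.28 (SE 0.08, adjusted p = 0.00579), and with array medians made equal it was -0.04 (adjusted p = 0.697). The other 6 calls held with equal medians.

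ATG8G ran the other way. It read 6.95, 6.58 and 6.54 in J0571 control against 6.28, 6.40 and 6.54 in root MS, the lowest sorted array standing just above the highest root array, as in 28.9% of all features. The difference of 0.29 did not pass on the deposited values (SE 0.14, adjusted p = 0.107, 95% interval -0.01 to 0.58). It passed with quantile normalization, at 0.35 (adjusted p = 0.0449), and with array medians made equal, at 0.53 (adjusted p = 0.00458), where the share of calls that were higher went from 54.2% to 71.7% over all features.

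With DEX on both sides the same 7 features had all J0571 DEX arrays below all root DEX arrays, as did 26.6% of all features, and ATG8G had them above, as did 32.0%. In J0571 DEX the means were 8.50 ± 0.04 for ATG3, 4.79 ± 0.23 for ATG8B, 6.18 ± 0.13 for ATG8C and 6.0 ± 0.03 for ATG8D (SD, n = 3). Those of ATG8E, ATG8F, ATG8G and ATG8H were 6.67 ± 0.05, 9.07 ± 0.10, 6.69 ± 0.26 and 9.47 ± 0.30. The mean differences from root DEX ranged from -1.65 for ATG8E and ATG8F to 0.37 for ATG8G.

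**Figure D4:**
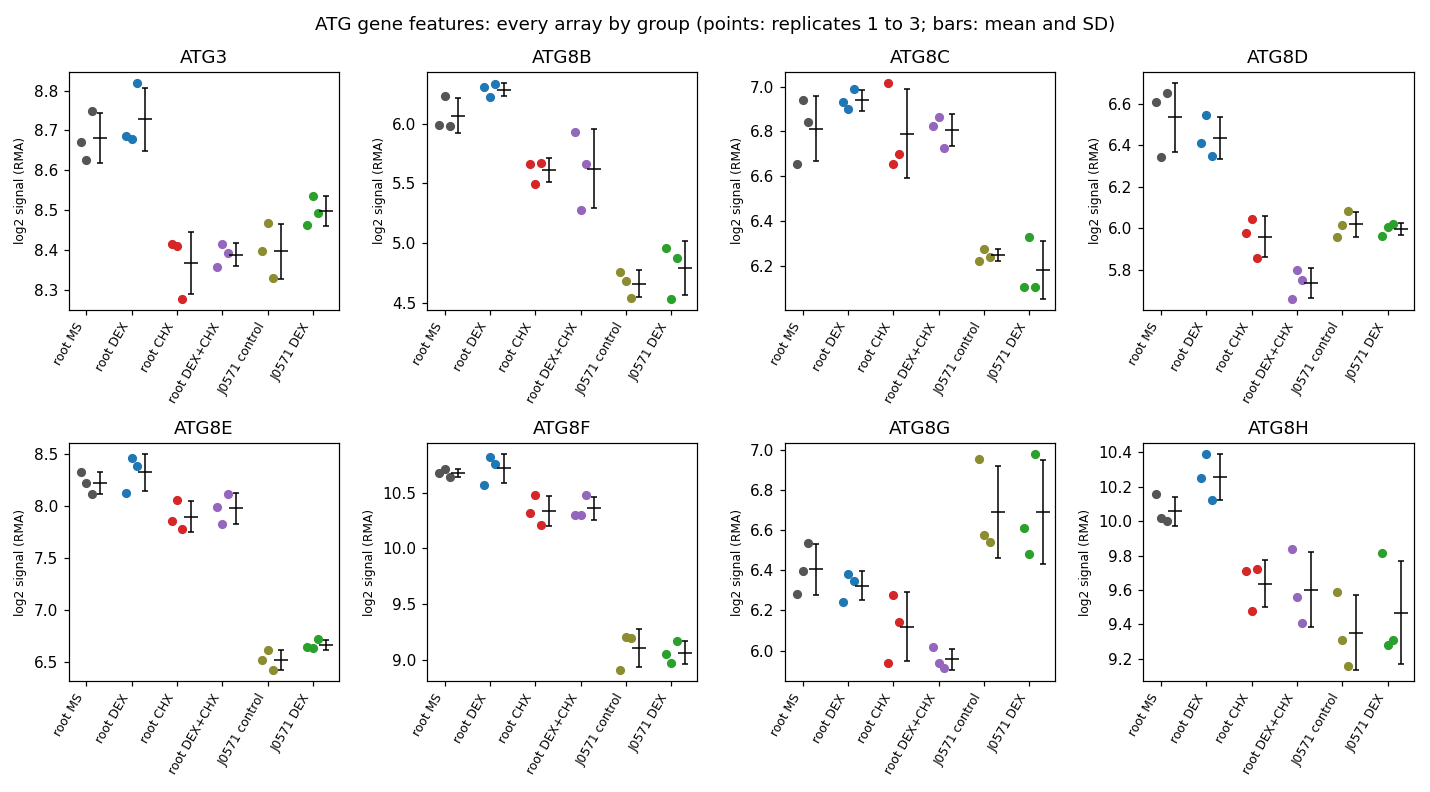
Log2 signal of each ATG feature in all 18 arrays, by group, with each feature on its own axis. Points are replicates 1 to 3 and bars the mean with SD; the sorted J0571 groups have the lowest means for ATG8B, ATG8C, ATG8E, ATG8F and ATG8H and the highest for ATG8G.

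Both relatives were lower in sorted cells as well. APG8A read 4.47, 5.03 and 4.43 in J0571 control, a difference of -2.55 (SE 0.15, adjusted p = 2.55e-09), larger in size than that of any of the 8. Its J0571 control signals, like those of ATG8B, stood near the array medians, 4.53 to 4.58. APG8H read 8.04, 8.32 and 7.92, a difference of -1.45 (SE 0.10, adjusted p = 1.46e-08). Of the 9 other machinery loci with a feature, 6 were called lower and none higher, against 22.4% and 26.5% of all features, with a median of -0.72. With array medians made equal, AT3G53930 was called higher at 0.48 (adjusted p = 0.00392), as it was without J0571 control replicate 3 (adjusted p = 0.0165), and AT2G32760 at 0.28 (adjusted p = 0.00536).

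Among the 6 lower loci, AT3G61960, AT1G49180 and AT3G18770, listed with the initiation genes, differed by -1.31 (SE 0.09), -1.18 (SE 0.16) and -1.16 (SE 0.10), with adjusted p of 9.64e-09, 1.99e-05 and 1.52e-07. AT1G49180 read 4.72, 4.70 and 4.10 in J0571 control, also near the array medians there. ATG101 (AT5G66930), a subunit of the initiating kinase complex, differed by -0.84 (SE 0.11, adjusted p = 1.40e-05). AT4G08540 differed by -0.72 (SE 0.12, adjusted p = 9.71e-05) and AT5G50230 by -0.39 (SE 0.11, adjusted p = 0.00723), the latter not with equal medians (adjusted p = 0.262).

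**Figure D5:**
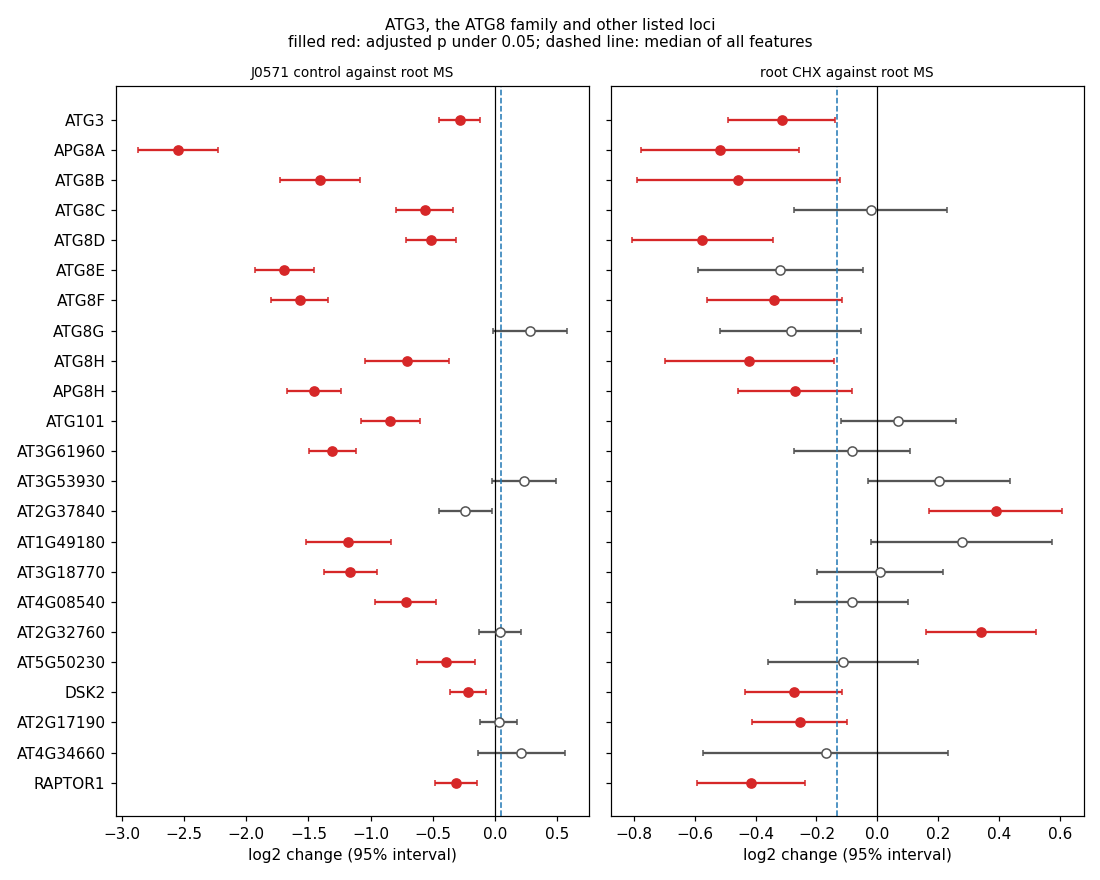
Log2 differences with 95% intervals for ATG3, the ATG8 family and the other listed loci with a feature, in sorted J0571 control cells against root MS (left) and in root CHX against root MS (right). Red marks an adjusted p under 0.05 and the dashed line the median of all features; among the ATG8 family, ATG8G alone lies above 0 on the left, and AT2G37840 and AT2G32760 are red above 0 on the right.

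The sort was checked against markers. Of 12 ground tissue markers, 3 had a feature and all 3 were higher in J0571 control, AT1G09750 by 3.99 (SE 0.25), JKD by 0.87 (SE 0.11) and AT1G62500 by 0.73 (SE 0.13), with adjusted p of 6.28e-09, 9.63e-06 and 0.000255. EXPA7, a wall-loosening protein of root hairs and the 1 of 4 epidermis markers with a feature, was lower, with a difference of -2.50 (SE 0.18, adjusted p = 1.83e-08). OPS, of the phloem and the 1 of 8 stele markers with a feature, did not pass at 0.14 (SE 0.22, adjusted p = 0.628). AT1G62500 read only 2.88 to 3.09 in root MS and 3.48 to 3.88 in J0571 control. OPS read 3.36 to 4.22 in root MS and 3.78 to 4.19 in J0571 control. Such low signals lie near background, so AT1G62500 and OPS say little about the sort. The part of tissue makeup in the ATG values was not tested.

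Ordered by group mean, ATG8E had the widest range, 1.80, from 8.32 ± 0.18 in root DEX through root MS, root DEX+CHX, root CHX and J0571 DEX to 6.52 ± 0.10 in J0571 control (SD, n = 3). In that order only the steps into and within the sorted cells left no overlap between neighbours. ATG8F spanned 1.65 and ATG8B 1.63, each with the root groups without cycloheximide highest, those with it next and the sorted cells lowest, and with no overlap between these 3 levels. ATG8H had the same order over 0.90, but its cycloheximide and sorted groups overlapped. ATG8C spanned 0.76, and its only step without overlap was from the 4 root groups to the sorted cells.

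ATG8D, over 0.80, had root DEX+CHX lowest, at 5.74 ± 0.07, apart from root CHX and the sorted cells, which overlapped. ATG3 spanned the least, 0.36, and between neighbours in its order only the step from root MS to J0571 DEX left no overlap. Its J0571 DEX arrays also lay above those of both cycloheximide groups. In ATG8G, over 0.73, the sorted groups were highest and every neighbouring pair of groups overlapped.

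Across the 28 pairs of the 8 features, Pearson's r over the 6 group means had a median of 0.62 and ran from -0.80 to 1.00. The 5 pairs below 0 all included ATG8G. Without ATG8G the lowest r was 0.35 and the median 0.83. These 6 points share the step between root tips and sorted cells. Over the 18 deviations from group means, which leave that step out, r ran from -0.64 to 0.66 with a median of 0.00, and 14 of the 28 were below 0.

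The 5 features of 1 gene whose 6 group means ran most like those of ATG8E were AT2G04690, AT1G12790, AT5G20700, AT5G22875 and AT5G43460, with r of 0.999 or more. Of the 16721 features compared, 311 had r of 0.99 or more, so that the likeness is widely shared. None of the 8 ATG features had the same values as another feature on all arrays, and cross-hybridisation among the related ATG8 transcripts was not tested.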

How the data were processed

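Per the submitters' processing notes, the authors made the deposited log2 signals with RMA, which corrects background, quantile-normalizes and summarizes probes. Not given in the sources used here are its version, the genome build, and whether RMA was run once over all 18 arrays. Per the labels' protocols, whole-transcript cDNA was made from total RNA. Deposited values were used as given, with no filter on low values, so all 8 members were tested. Feature names came from the platform's probe-gene table, updated through RefSeq's TAIR10.1 annotation, which linked all 8 members to a locus.

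The R package limma (3.58.1, run in R 4.3.3) fitted 1 mean per group with moderated variances (eBayes) and a two-sided test per feature, adjusted over all 38408. Separate fits were made for the 12 root arrays, the 6 J0571 arrays and all 18, the last for comparisons between the experiments; median residual SDs were 0.190, 0.204 and 0.206. The procedure was tested on simulated data. For arrays, their number limits the precision.

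The text names every member, every listed autophagy locus with a feature of 1 gene, and the 5 features most like the member of widest range. Members, lists and markers were chosen with earlier results of these data known. Alternatives were leaving out each array, a replicate block, quantile normalization, equal array medians or upper quartiles, leaving out features below the 25th percentile of mean signal, trend and robust variances, other sets of arrays in the fit, and features of 1 gene only.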

Additional observations from a re-analysis of the deposited data

How the results depend on the processing

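The number of the 8 ATG features called lower in root CHX, 5 on the deposited values, was 1 with array medians equal, 3 when only the 6 arrays compared were fitted, and 2 to 4 with 1 array left out. In root DEX+CHX against root DEX it was 6, and 3 with array medians equal, and 4 to 7 with 1 array left out. In J0571 control against root MS, 1 feature, ATG8G, was called higher with quantile normalization and with array medians equal, and 0 otherwise. Of 252 such counts over all comparisons and alternatives, 243 stayed within 1.5 times the first count and 9 did not. Most of the 252 began at 0 and remained there, many of them where almost no feature of all was called. That share therefore says little about the counts above 0. Equal upper quartiles and features of 1 gene only were chosen after seeing the data. In the comparisons with DEX, the interaction and the difference between responses, 664 member values under the alternatives gave 0 passes, and 46 of them changed sign. Few or no features of all were called in these settings, and the 664 values are refits of the same 8 features. They therefore add little to the stated intervals.

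DSK2 turned from -0.22 to 0.0275 in J0571 control against root MS with array medians equal. With equal medians the median of all features was 0.30 there, against 0.05 on the deposited values. Over all features with equal medians, calls of lower went from 7558 to 3742 in root CHX and from 8475 to 4213 in root DEX+CHX against root DEX, and calls of higher in the latter from 4460 to 7212 and in J0571 control against root MS from 10187 to 16024. In J0571 DEX against J0571 control, where 12 features were called higher and 1 lower, 0 passed with the replicate block, and 49 were higher and 19 lower in 1 fit over all 18 arrays. The cause of these changes was not tested.

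With the replicate number as a block, 4 of the 8 features were called lower in root CHX (ATG8B was lost, adjusted p = 0.0560), 6 in root DEX+CHX against root DEX and 7 in J0571 control against root MS. The numbers were not taken to pair the samples, because deviations of same-numbered arrays correlated above 0.1 in 3 of 18 root pairs (-0.24 to 0.20) and in 2 of 3 J0571 pairs (0.02 to 0.25), not in all. The labels do not say whether same-numbered J0571 arrays share a source, and these correlations do not settle it. With 3 arrays a group, changes within the stated intervals could not be told from 0, and low signals lie near background.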
